A study of Mus musculus with 11 samples.

Results

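The 10 genes described here encode 3 TGF-beta ligands (Tgfb1, Tgfb2, Tgfb3), the related muscle ligand myostatin (Mstn), 3 receptors (Tgfbr1, Tgfbr2, Tgfbr3) and 3 SMAD proteins (Smad2, Smad3, Smad7). They were taken by gene symbol from a table of 54532 genes, and the list was made with earlier results of these data known. Each symbol matched 1 row. All 10 passed the filter on low counts, as did 14862 genes in all.

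The study sequenced RNA from hearts, taken whole, of C57BL/6 mice; the labels give 26 weeks as the time for every sample. Mice on chow gave 3 libraries. Another 4 came from mice labelled HFD+STZ, letters that in mouse work mostly mean fat-rich food plus streptozotocin, which destroys the cells that make insulin; the labels leave them unexplained. The last 4, called METTL3 here, had HFD+STZ and also AAV METTL3. AAV is as a rule a gene-carrying virus, and the METTL3 enzyme adds methyl groups to adenosines of messenger RNA. Both the HFD+STZ and the METTL3 group thus carry the HFD+STZ treatment. No label tells whether the first 2 groups received a control virus, which promoter drove METTL3, or the sex of the mice.

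TGF-beta ligands are secreted in a latent form that is held in the extracellular matrix until it is activated. The active ligand joins the type II receptor (Tgfbr2) with the type I receptor (Tgfbr1), which phosphorylates Smad2 and Smad3; these enter the nucleus with Smad4 and switch on target genes, among them the inhibitor Smad7. In the heart the pathway is best known for driving fibroblasts to lay down matrix. Myostatin signals through activin type II receptors to the same SMADs, and it is known above all as a brake on skeletal muscle growth; cardiac muscle makes it at a lower level.

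Libraries held 13900531 to 16952639 counts. The mitochondrial share was 37.7% to 45.5% in METTL3, 28.6% to 32.5% in HFD+STZ and 9.28% to 27.4% in chow libraries, with chow replicate 3 at the low end. That library also had the fewest genes detected, 15734 against 20769 and 20672 in chow replicates 1 and 2. Its counts differed from theirs by a mean chi-square per gene of 338 and 298, against 18.6 between replicates 1 and 2. Every comparison with chow includes it unless stated. In the labels' sample codes, the chow libraries, HFD+STZ replicate 1 and METTL3 replicate 4 have numbers from 78 to 98 and the other 6 libraries from 25 to 33; what the codes stand for is not stated. Levels are in CPM, a library's counts for a gene scaled to a common total after TMM normalization. The targeted gene Mettl3 averaged 8.39 CPM in METTL3 and 6.35 CPM in HFD+STZ libraries, a log2 difference of 0.40 (SE 0.32) that did not pass (edgeR Benjamini-Hochberg adjusted p of 0.759). Directions for the METTL3 libraries therefore rest on their label.

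The promoters of Mstn and Tgfb1 are shown because these genes were the members whose levels passed the test in a comparison. Each is the 250 bases before the annotated start, from RefSeq on build GRCm38.p6, plus strand, at chr1:53061390-53061639 for Mstn and chr7:25686752-25687001 for Tgfb1. Capitals in the Mstn window mark the core letters of a promoter box, TATAAA, and the short SMAD-binding element, CAGAC. Capitals in the Tgfb1 window mark the element bound by Sp1, GGGCGG, or its reverse complement. Each was searched on both strands.
Mstn: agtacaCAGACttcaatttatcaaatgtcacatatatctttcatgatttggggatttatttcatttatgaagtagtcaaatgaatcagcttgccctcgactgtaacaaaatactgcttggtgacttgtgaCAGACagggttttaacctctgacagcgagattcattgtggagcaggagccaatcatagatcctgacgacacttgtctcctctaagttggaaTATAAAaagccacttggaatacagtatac
Tgfb1: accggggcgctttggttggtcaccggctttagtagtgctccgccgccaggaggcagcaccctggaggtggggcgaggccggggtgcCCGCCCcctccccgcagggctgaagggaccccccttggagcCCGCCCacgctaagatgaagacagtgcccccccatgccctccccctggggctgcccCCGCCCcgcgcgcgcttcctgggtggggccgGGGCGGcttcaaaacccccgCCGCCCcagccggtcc
The sequences differ in composition. The Mstn window had a GC content of 38.4%, lower than in most windows (9.0% of all windows lay below it), 1 TATAAA, 2 CAGAC and no GGGCGG. The Tgfb1 window had a GC content of 75.2% (96.1% lay below it), 5 GGGCGG and neither of the other motifs. Among 32851 RefSeq windows of the same length, 12.4% held TATAAA, 42.2% CAGAC and 32.7% GGGCGG. RefSeq entries were at hand for 6 of the 10 members. A match is a run of letters and does not show that a factor binds there.

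Levels between genes were compared per kilobase of the gene length given in the file. Over all libraries Tgfbr2 ranked first, at a mean of 10.7 ± 1.65 CPM per kilobase (SD over 11 libraries), and Tgfbr3 next at 9.03 ± 2.95. Smad7 (7.12 ± 2.06) and Tgfb1 (7.08 ± 2.64) followed, and then Tgfbr1 (4.67 ± 1.21), Smad2 (4.38 ± 1.10) and Tgfb3 (4.35 ± 1.50). Smad3 lay at 2.29 ± 0.454, Tgfb2 at 2.01 ± 0.575 and Mstn last at 0.640 ± 0.474 CPM per kilobase. The order differed in chow hearts, where Tgfb1 had the highest mean (10.3 CPM per kilobase, against 9.41 for Tgfbr2) and Smad7 (8.63) lay above Tgfbr3 (7.03). Tgfb1 exceeded Tgfbr2 there in chow replicate 3 alone. Most neighbours in the order over all libraries did not differ beyond their spread: Smad7 exceeded Tgfb1 in 7 of 11 libraries, Tgfbr1 exceeded Smad2 in 5 and Smad2 exceeded Tgfb3 in 5. Tgfb3 exceeded Smad3 in 10 of 11 libraries, and Tgfb2 exceeded Mstn in all 11. The file's Smad2 model is 3549 bases long, while its exons in GENCODE release M21 cover 8781 bases; with that length Smad2 would lie at 1.77 CPM per kilobase. The other 9 members have the same coordinates and exon length there. The longest protein-coding transcript of Tgfb1, however, has 2175 bases against a length of 5042 in the file. With that transcript's length Tgfb1 would lie higher, so its rank depends on the length used.

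**Figure D1:**
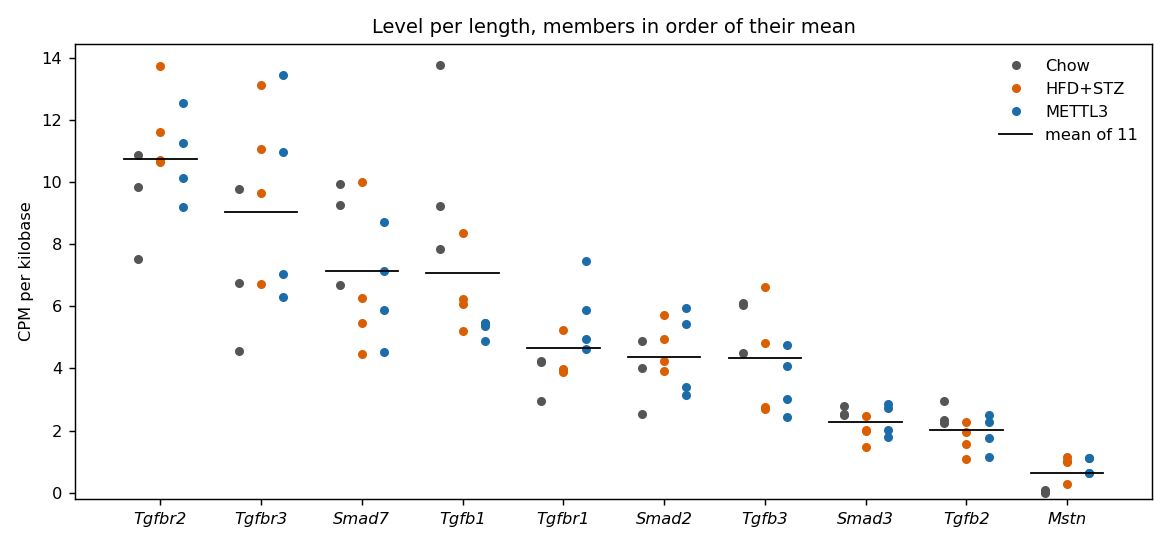
Level of each member in CPM per kilobase of the gene length in the file (y axis) for the 11 libraries. Members are in order of the mean (black line), with chow in grey, HFD+STZ in orange and METTL3 in blue. Over the 11 libraries Tgfbr2 has the highest mean at 10.7 and Mstn the lowest at 0.640, in chow libraries Tgfb1 has the highest mean at 10.3, and Mstn is the member whose chow libraries sit at the floor.

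Mstn showed the largest difference of any member. It was nearly silent in chow hearts and readable in every heart of the HFD+STZ and METTL3 groups, at about the same level in both. The gene (ENSMUSG00000026100, chromosome 1, 53061640 to 53068079, mm10 coordinates as deposited) had 4, 1 and 0 counts in the chow libraries, in replicate order. In HFD+STZ hearts it had 13, 44, 45 and 46 counts, and in METTL3 hearts 22, 36, 40 and 19. All 8 libraries of the treated groups lay above the 3 chow libraries, and the treated groups overlapped each other.

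In CPM the chow libraries lay at 0.207, 0.0538 and 0, a mean of 0.0870 ± 0.108 (SD, n = 3). HFD+STZ libraries lay at 0.726, 2.68, 3.14 and 2.80 CPM (mean 2.33 ± 1.09, SD, n = 4), and METTL3 libraries at 1.72, 3.01, 3.02 and 1.70 CPM (mean 2.36 ± 0.751, SD, n = 4). The lowest HFD+STZ library was replicate 1 and the lowest METTL3 library replicate 4, the only libraries of those groups with a sample code above 33. Each was still above all chow libraries of the same code range.

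Between METTL3 and chow hearts Mstn rose by a log2 fold change of 4.61 (SE 0.82, 95% interval 2.83 to 6.39, edgeR Benjamini-Hochberg adjusted p of 0.0205). Between HFD+STZ and chow the value was 4.59 (SE 0.82, 95% interval 2.82 to 6.36) with an edgeR adjusted p of 0.05001, just above the threshold of 0.05; by p it was the gene ranked 26 of 14862, and 25 genes passed. The two-sided exact permutation p of log2 CPM was 0.0286 in both comparisons, the smallest that 35 splits allow. METTL3 against HFD+STZ gave 0.02 (SE 0.56, edgeR adjusted p of 0.995), and its 95% interval of -1.19 to 1.24 leaves room for a change of over 2-fold either way. Both comparisons against chow use the same 3 chow libraries.

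Mstn passed the filter on low counts only through the HFD+STZ and METTL3 libraries, where it was high. Its entry into the test thus already depended on those groups. The fold rests on few counts, since the chow libraries held 5 in all against 148 in HFD+STZ and 117 in METTL3 hearts. From these sums Mstn was 25.3-fold higher in HFD+STZ than in chow libraries (exact 95% interval 10.6 to 79.1) and 26.5-fold higher in METTL3 than in chow libraries (11 to 83.2); the intervals cover counting error only. When the code range entered the model, the log2 fold change was 3.53 for HFD+STZ and 3.69 for METTL3 against chow, and neither passed (edgeR Benjamini-Hochberg adjusted p of 0.600 and 0.140). Without chow replicate 1 the values were 6.04 and 6.05. The METTL3 call was lost without chow replicate 2, METTL3 replicate 3 or METTL3 replicate 4 (edgeR adjusted p of up to 0.0718), and the HFD+STZ difference passed without chow replicate 3 (0.0363) or HFD+STZ replicate 1 (0.00912).

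Skeletal muscle makes Mstn at a high level, so markers of that tissue were read beside it. Of the 7 markers fixed for it, only 1 passed the filter on low counts. The fast myosin genes Myh1 and Myh4 were at 0 counts in all 8 HFD+STZ and METTL3 libraries. Each other marker had some counts in both groups, at most 13 in an HFD+STZ and 9 in a METTL3 library. The summed level of the list was 1.24 to 4.04 CPM in chow, 0.627 to 1.84 in HFD+STZ and 0.358 to 0.752 CPM in METTL3 libraries. The ranges of chow and HFD+STZ libraries overlapped, and no METTL3 library reached the chow range. These sums lie near the floor, and the part of skeletal muscle in the Mstn difference was not tested. The genes whose log2 CPM followed that of Mstn most closely over the 11 libraries were Spock2 (Pearson r of 0.988), a proteoglycan gene, Herpud1 (0.963), an endoplasmic reticulum stress gene, and Uhrf1bp1l (0.961). These are descriptions of 1 set of libraries, in which the difference between the groups sets much of the likeness.

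**Figure D2:**
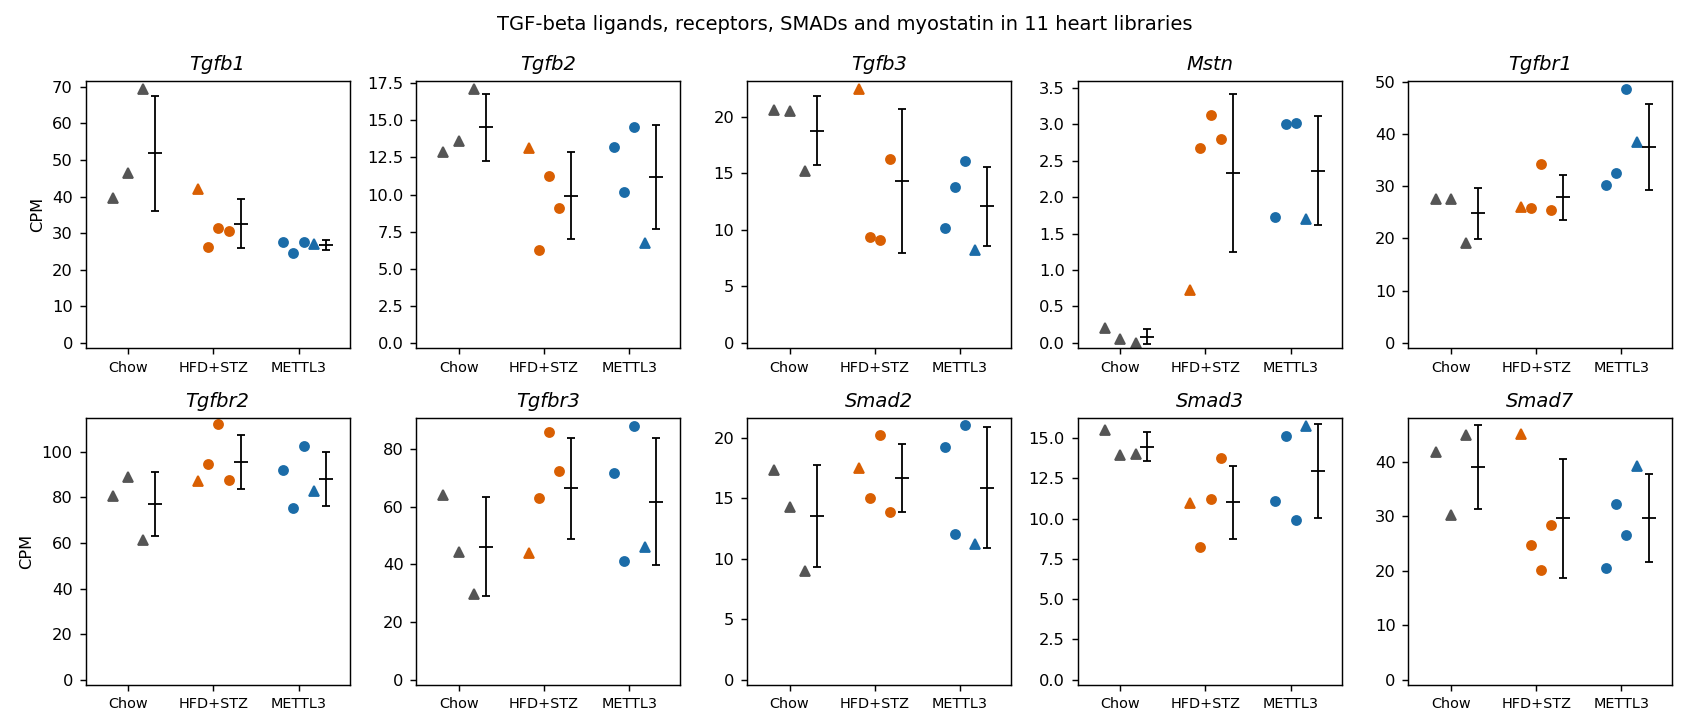
CPM (y axis, a separate scale for each gene) of the 10 members in each library by group, with the mean ± SD in black; triangles are libraries with sample codes 78 to 98 and circles those with 25 to 33. Mstn is at most 0.207 CPM in chow and at least 0.726 CPM in the other groups, and Tgfb1 is lower in each METTL3 library than in every chow library.

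Tgfb1, per length the most abundant ligand among the members, was lower in METTL3 than in chow hearts, while the difference between HFD+STZ and chow did not pass. The gene (ENSMUSG00000002603, chromosome 7, 25687002 to 25705077) lay at 39.5, 46.5 and 69.3 CPM in chow hearts (mean 51.8 ± 15.6, SD, n = 3). HFD+STZ hearts had 42.2, 26.2, 31.4 and 30.6 CPM (mean 32.6 ± 6.78, SD, n = 4), and METTL3 hearts 27.5, 24.7, 27.6 and 27.1 CPM (mean 26.7 ± 1.38, SD, n = 4). Each METTL3 library was below all chow libraries, and HFD+STZ replicate 1 alone of its group lay within the chow range.

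Between METTL3 and chow hearts Tgfb1 fell by 0.96 on the log2 scale (SE 0.21, edgeR Benjamini-Hochberg adjusted p of 0.0357, two-sided exact permutation p of 0.0286). HFD+STZ against chow gave -0.67 (SE 0.21, edgeR adjusted p of 0.264), and METTL3 against HFD+STZ -0.29 (SE 0.20, 95% interval -0.72 to 0.14, edgeR adjusted p of 0.696). Chow replicate 3 was the highest library; without it the METTL3 value was -0.70 (edgeR adjusted p of 0.0420) and the HFD+STZ value -0.39. The METTL3 call was lost with the code range as a covariate (-0.74, edgeR adjusted p of 0.267), with offsets for GC content and gene length (-0.89, 0.0946) and without any one of chow replicate 2, HFD+STZ replicates 3 and 4 and METTL3 replicates 1 to 4 (0.0536 to 0.0948).

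Macrophages and endothelial cells are among the cells that make Tgfb1, and whole-heart RNA cannot tell fewer cells of a type from less RNA per cell. The summed macrophage markers and Tgfb1 both had their highest group mean in chow and their lowest in METTL3 libraries. Within groups the orders differed. HFD+STZ replicate 1 had the most Tgfb1 of its group (42.2 CPM), and replicate 3 the highest macrophage sum (126 CPM). The summed level of the 4 fixed markers was 123 to 236 CPM in chow, 69.3 to 126 CPM in HFD+STZ and 31.9 to 64.9 CPM in METTL3 libraries. All 4 had a negative log2 fold change in METTL3 against chow, and 2 passed over all genes: Csf1r, the receptor of a macrophage growth factor (-1.33, SE 0.27, edgeR Benjamini-Hochberg adjusted p of 0.0284), and C1qa, a complement gene (-2.57, SE 0.39, 0.0101). None of the 4 was at 0 in a group. The sum of the 4 endothelial markers was 677 to 922 CPM in chow and 905 to 1128 CPM in METTL3 libraries. The part of these cells in the Tgfb1 difference was not tested.

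**Figure D3:**
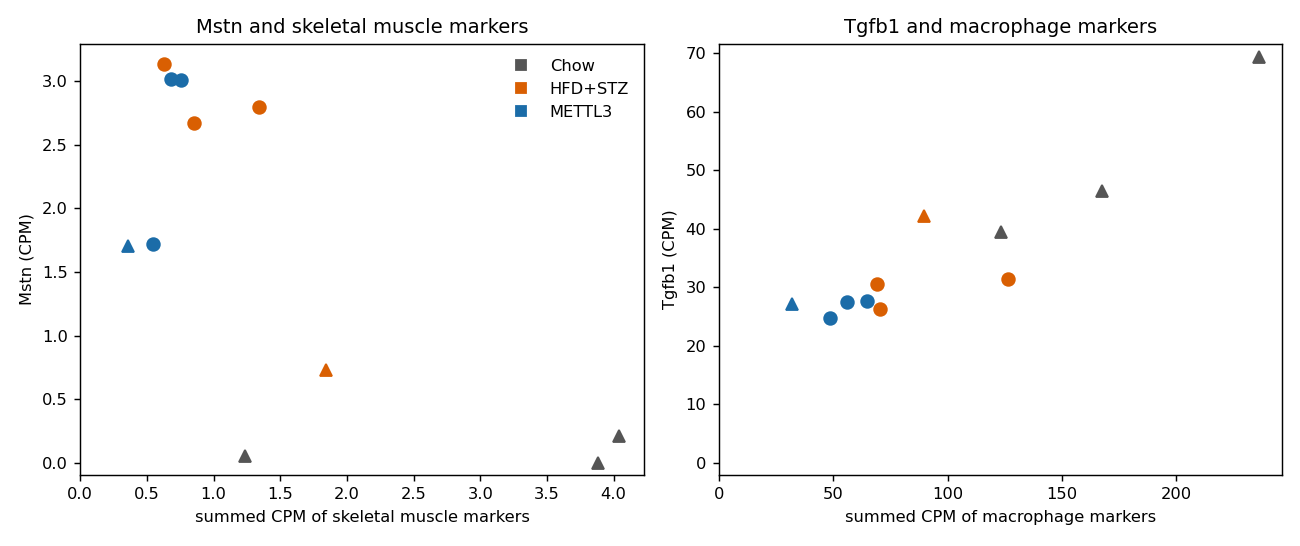
Mstn against the summed skeletal muscle markers (left) and Tgfb1 against the summed macrophage markers (right), all in CPM, with 1 point per library; grey is chow, orange HFD+STZ, blue METTL3, and triangles are sample codes 78 to 98. The libraries with Mstn above 1 CPM have skeletal muscle sums of at most 1.34 CPM, and the METTL3 libraries hold the lowest macrophage sums with Tgfb1 at 24.7 to 27.6 CPM.

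Tgfb2 and Tgfb3, the other isoforms, passed in no comparison with edgeR. Tgfb2 lay at 12.9, 13.6 and 17.1 CPM in chow hearts, at 13.1, 6.26, 11.2 and 9.07 in HFD+STZ hearts and at 13.2, 10.2, 14.6 and 6.72 in METTL3 hearts. Tgfb3 lay at 20.6, 20.5 and 15.3 CPM in chow hearts, at 22.4, 9.36, 9.13 and 16.3 in HFD+STZ hearts and at 10.2, 13.8, 16.1 and 8.24 in METTL3 hearts. For both genes HFD+STZ replicate 1 lay within or above the chow range, and the groups overlapped.

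For Tgfb2 the log2 fold change against chow was -0.55 (SE 0.29) in HFD+STZ and -0.38 (SE 0.29) in METTL3 hearts, and for Tgfb3 -0.39 (SE 0.32) and -0.64 (SE 0.32). The edgeR Benjamini-Hochberg adjusted p of these 4 values ran from 0.276 to 0.617. Limma voom with quality weights called Tgfb3 in both, at -0.78 (adjusted p of 0.0261) in HFD+STZ and -0.79 (0.0348) in METTL3 against chow. Voom called 1954 and 3078 of the 14862 genes in these comparisons. It was the only 1 of 23 alternatives in which Tgfb3 passed in either. Per length, Tgfb1 made up 55.2 ± 8.55% of the 3 isoforms in chow (SD, n = 3), 53.0 ± 5.11% in HFD+STZ (SD, n = 4) and 49.8 ± 7.47% in METTL3 hearts (SD, n = 4), ranges that overlapped. These shares use the gene lengths in the file, and the shorter length of the longest Tgfb1 coding transcript would raise them. The spans of genes on the opposite strand overlap those of both Tgfb2 and Tgfb3, and whether their exons overlap was not checked. No source used here gives the strand setting of the counts, so it is not known whether reads of these pairs were mixed. The same holds for Tgfbr3, which overlaps Gm8145 on the opposite strand and also Gm43422, Gm43423 and Gm42900 on its own. Vcam1, an adhesion gene, had the pattern most like Tgfb2 (Pearson r of 0.948 over 11 libraries), and the collagen gene Col18a1 was among those most like Tgfb3 (0.908).

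The type I receptor gene Tgfbr1 passed in no comparison, and it had the largest value of the 3 member receptors in both comparisons of METTL3 hearts. It lay at 27.6, 27.5 and 19.2 CPM in chow hearts, at 26.0, 25.7, 34.2 and 25.4 in HFD+STZ hearts and at 30.2, 32.4, 48.6 and 38.4 in METTL3 hearts. Each METTL3 library exceeded all chow libraries, and only HFD+STZ replicate 3 reached into the METTL3 range. The log2 fold change of METTL3 was 0.59 (SE 0.21, 95% interval 0.14 to 1.05) against chow and 0.43 (SE 0.19, 95% interval 0.01 to 0.84) against HFD+STZ, with edgeR Benjamini-Hochberg adjusted p of 0.128 and 0.540. HFD+STZ against chow gave 0.17 (SE 0.21), the smallest of the 3 receptors there.

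Tgfbr2, the type II receptor that binds the ligand, lay at 80.7, 89.1 and 61.5 CPM in chow, 87.2, 94.9, 112 and 87.6 in HFD+STZ and 92.1, 75.2, 103 and 82.8 in METTL3 hearts. Tgfbr3, the coreceptor betaglycan that presents ligand to it, lay at 64.0, 44.2 and 29.8 CPM in chow, 44.1, 63.1, 85.8 and 72.5 in HFD+STZ and 71.8, 41.3, 87.9 and 46.0 in METTL3 hearts. The groups overlapped for both genes, and chow replicate 3 was the lowest library of all for each.

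Smad2, a signal-carrying SMAD, lay at 17.3, 14.3 and 9.01 CPM in chow, 17.5, 15, 20.3 and 13.9 in HFD+STZ and 19.3, 12.0, 21.1 and 11.2 in METTL3 hearts. Among METTL3 libraries, replicates 1 and 3 were high and 2 and 4 low for Smad2, Tgfbr2 and Tgfbr3 alike. Smad7 had the opposite order there. The log2 fold changes against chow were positive for these 3 genes, from 0.19 for Tgfbr2 in METTL3 to 0.53 for Tgfbr3 in HFD+STZ hearts, and the edgeR Benjamini-Hochberg adjusted p ran from 0.474 to 0.681. In a model with the code range Tgfbr3 lay at 0.01 in HFD+STZ and at -0.08 in METTL3 against chow. Between METTL3 and HFD+STZ they were -0.12 (SE 0.17) for Tgfbr2, -0.10 (SE 0.29) for Tgfbr3 and -0.07 (SE 0.26) for Smad2.

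Smad3, the other signal-carrying SMAD, lay at 15.5, 13.9 and 14.0 CPM in chow hearts, at 10.9, 8.21, 11.2 and 13.8 in HFD+STZ hearts and at 11.1, 15.1, 9.89 and 15.8 in METTL3 hearts. All HFD+STZ libraries were below all chow libraries by this measure, the highest by a small margin. The log2 fold change was -0.39 (SE 0.22, edgeR Benjamini-Hochberg adjusted p of 0.482) for HFD+STZ and -0.16 (SE 0.22, 0.732) for METTL3 against chow.

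The inhibitory Smad7 lay at 41.9, 30.3 and 44.9 CPM in chow, 45.2, 24.7, 20.1 and 28.4 in HFD+STZ and 20.4, 32.3, 26.7 and 39.3 in METTL3 hearts. The 5 libraries with codes 78 to 98 lay at 30.3 to 45.2 CPM, with the HFD+STZ library there the highest of all and the METTL3 library at 39.3 CPM, while the other HFD+STZ libraries lay at 20.1 to 28.4 and the other METTL3 libraries at 20.4 to 32.3 CPM. The code ranges overlapped, since chow replicate 2 lay below METTL3 replicate 2. The log2 fold change was -0.40 (SE 0.28) for both HFD+STZ and METTL3 against chow, with edgeR Benjamini-Hochberg adjusted p of 0.563 and 0.445. With the code range as a covariate both values turned positive (0.10 and 0.14). Between METTL3 and HFD+STZ it was 0.00 (SE 0.26, 95% interval -0.57 to 0.57).

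**Figure D4:**
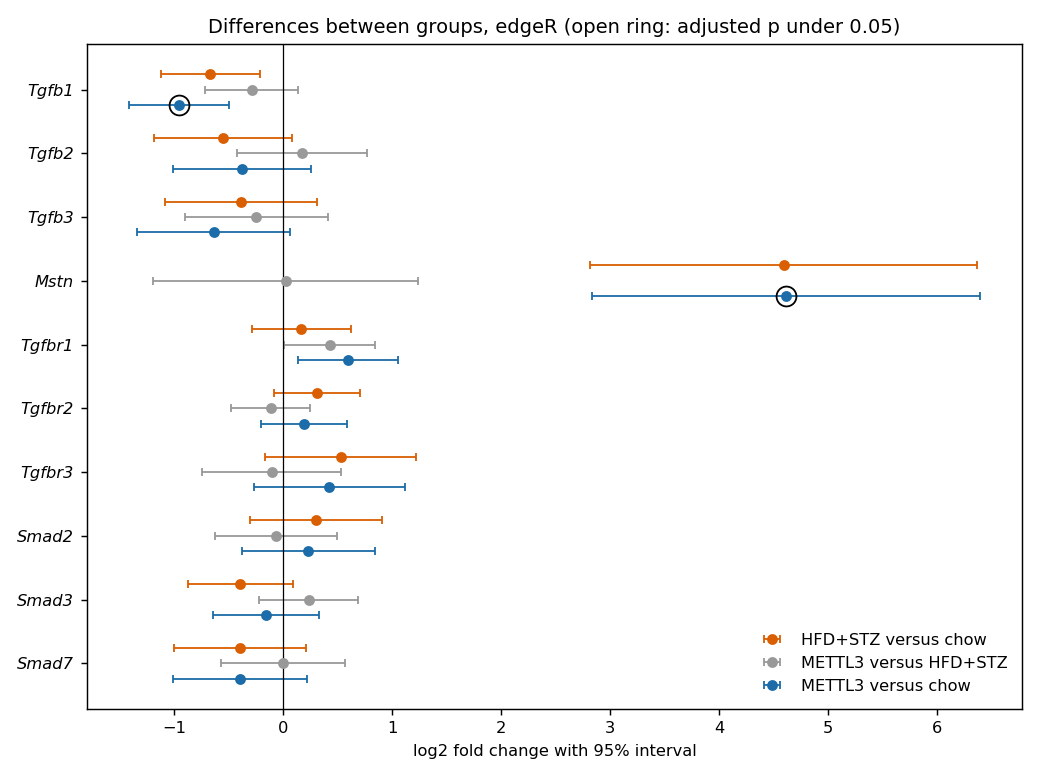
Log2 fold change of each member with its 95% interval (x axis) in the 3 comparisons; rings mark an edgeR Benjamini-Hochberg adjusted p under 0.05. Mstn stands at 4.59 and 4.61 against chow and at 0.02 between METTL3 and HFD+STZ, and Tgfb1 at -0.96 in METTL3 against chow is the other ringed value.

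Counted together, 1 member rose (Mstn) and 1 fell (Tgfb1) between METTL3 and chow hearts at an edgeR Benjamini-Hochberg adjusted p of 0.05. Over all genes tested 3.20% passed in that comparison, 1.82% higher and 1.37% lower. The groups did not overlap for 3 members (Mstn, Tgfb1, Tgfbr1), against 18.7% of all genes. Mstn had passed the filter only through the HFD+STZ and METTL3 libraries, and the members were chosen with earlier results known. Its part in these counts, and in those for HFD+STZ against chow, is therefore no separate support. For HFD+STZ against chow 0 members passed, against 0.168% of all genes (0.135% higher and 0.0336% lower). An unadjusted edgeR p under 0.05 was found for 2 (Mstn and Tgfb1), against 12.1% of all genes. DESeq2 called 1 member there and 307 of the 14862 genes. Limma voom with quality weights called 3 members (Mstn, Tgfb1 and Tgfb3) and 1954 genes in all. The groups did not overlap for Mstn and Smad3, against 10.4% of all genes. For METTL3 against HFD+STZ 0 members passed with edgeR, with DESeq2 and with limma voom, and 1 (Tgfbr1) had an unadjusted p under 0.05, against 9.06% of all genes; edgeR called 0% of all genes there. Groups did not overlap for any member in that comparison, against 9.57% of all genes. The median log2 fold change of the members was -0.11, -0.03 and 0.02 for HFD+STZ against chow, METTL3 against HFD+STZ and METTL3 against chow, beside -0.02, -0.00 and -0.01 over all genes.

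The rest of the pathway was read from a list of 87 genes in 7 roles, of which 79 were tested. Between METTL3 and chow hearts 1 rose and 2 fell, against 3.20% of all genes, and the list's median log2 fold change was -0.03. Between HFD+STZ and chow 0 passed with edgeR, with 11 at an unadjusted p under 0.05, against 12.1% of all genes. DESeq2 called 4 of the list and 307 of the 14862 genes, and voom 24 and 1954. Between METTL3 and HFD+STZ 0 passed with edgeR, with 8 at an unadjusted p under 0.05, against 9.06% of all genes. DESeq2 called 1 of the list and 139 genes in all, and voom 3 and 395. The list's median log2 fold change was -0.07 for HFD+STZ against chow and -0.01 for METTL3 against HFD+STZ.

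The gene that rose was Bmpr2, the type II receptor of bone morphogenetic proteins. It lay at 118, 92.6 and 115 CPM in chow, 110, 117, 134 and 134 in HFD+STZ and 203, 176, 207 and 202 in METTL3 hearts, so the METTL3 libraries were above all others. The log2 fold change was 0.86 (SE 0.16, edgeR Benjamini-Hochberg adjusted p of 0.0250) against chow and 0.67 (SE 0.15, 0.350) against HFD+STZ. With offsets for GC content and gene length the value against chow was 0.20 (edgeR adjusted p of 0.650). Acvr2a, a type II receptor through which myostatin signals, had 0.67 (SE 0.21, edgeR adjusted p of 0.0906) against chow and 0.60 (SE 0.19, 0.404) against HFD+STZ.

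Itgb6, a subunit of an integrin that frees TGF-beta from its latent form, fell by 0.95 on the log2 scale (SE 0.23, edgeR Benjamini-Hochberg adjusted p of 0.0431) between METTL3 and chow hearts. It lay at 14.6, 11.8 and 11.6 CPM in chow, 7.32, 4.80, 4.81 and 6.21 in HFD+STZ and 6.50, 5.77, 6.12 and 7.71 in METTL3 hearts. Both treated groups were below chow throughout, and HFD+STZ against chow gave -1.13 (SE 0.22, edgeR adjusted p of 0.0641). Tgfbi, a matrix protein gene that TGF-beta induces, fell by 1.20 (SE 0.29, edgeR adjusted p of 0.0478), from 32.1, 36.5 and 31.1 CPM in chow to 16.7, 11.9, 22 and 7.35 in METTL3 hearts, with 26.9, 20.5, 26.6 and 18 in HFD+STZ hearts. The calls of Itgb6, Tgfbi and Bmpr2 were lost with the code range as a covariate (edgeR adjusted p of 0.303, 0.183 and 0.161) and with a library left out. Among these fits, Itgb6 passed only without chow replicate 3 or HFD+STZ replicate 1, and Tgfbi only without chow replicate 3. Bmpr2 did not pass once METTL3 replicate 1, 3 or 4 or chow replicate 2 was left out.

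Other target genes moved both ways without passing. Cdkn1a, a cell cycle inhibitor, had a log2 fold change of 2.30 (SE 0.48, edgeR Benjamini-Hochberg adjusted p of 0.0838) in HFD+STZ against chow and 1.88 (SE 0.47, 0.0506) in METTL3 against chow. Of the 21 target genes 16 had a negative value in HFD+STZ against chow, with a median of -0.53. Over all genes 7662 of 14862 were negative, with a median of -0.02. Chow replicate 3 stood apart in some target genes, and its part in their median was not tested. Timp1, a protease inhibitor gene, lay at 97.5 CPM there and at 2.64 and 4.03 CPM in the other chow libraries. Acta2, the smooth muscle actin, lay at 366 CPM there against 106 and 139, and Id1, a target of the bone morphogenetic protein branch, at 248 against 59.5 and 62.3 CPM.

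Other named genes of the roles between ligand and target did not pass with edgeR. Nrros, which anchors latent TGF-beta on macrophages and microglia, had a log2 fold change of -0.91 (SE 0.31) in HFD+STZ against chow, and the ligand genes Bmp6 (1.10, SE 0.40) and Inhbb (1.14, SE 0.41) lay higher there. Smad1, a SMAD of the bone morphogenetic protein branch, had -0.52 (SE 0.20), Smad6, an inhibitor of that branch, 0.54 (SE 0.28), and Smad4, the shared partner, 0.05 (SE 0.16). Ppm1a, a phosphatase that acts on Smad2 and Smad3, had 0.50 (SE 0.19), and 0.71 (SE 0.19, edgeR Benjamini-Hochberg adjusted p of 0.0666) in METTL3 against chow. Among soluble antagonists the 3 smallest p belonged to Dcn, Chrd and Fst, whose adjusted p was at least 0.483 in every comparison.

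**Figure D5:**
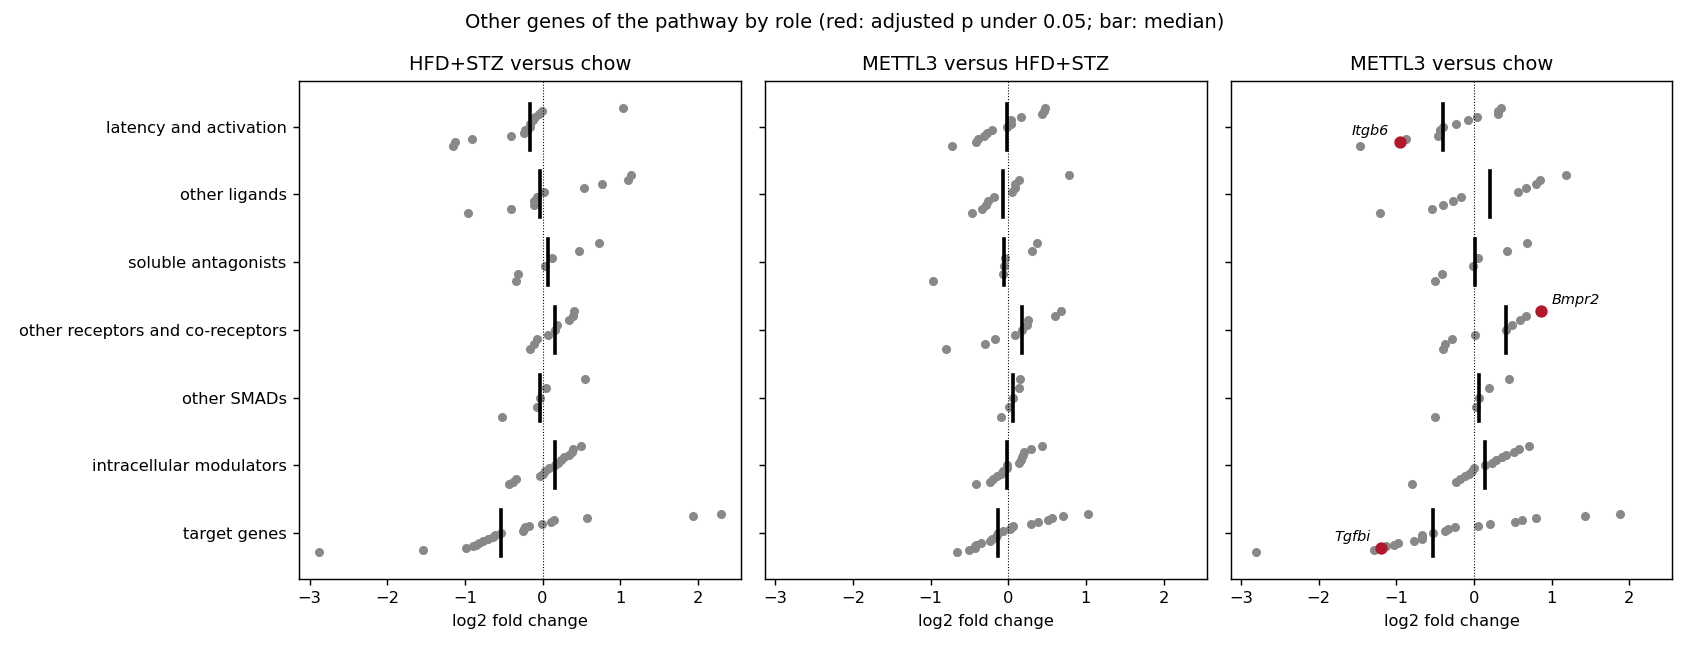
Log2 fold change (x axis) of the 79 tested genes of the pathway list by role (y axis) in the 3 comparisons; black bars are medians and red points passed an edgeR Benjamini-Hochberg adjusted p of 0.05. The 3 red points, Itgb6, Tgfbi and Bmpr2, are all in METTL3 against chow, and target genes have a median of -0.53 in both comparisons against chow.

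Because METTL3 methylates adenosines within short motifs that include GGACT, the count of these letters in the longest protein-coding transcript of each member (GENCODE M21) was taken as a sequence feature. Tgfb1 held 5 in 2175 bases, or 2.30 per kilobase, more than 92.6% of 21877 genes. Tgfbr2 held 10 in 8092 bases (1.24 per kilobase), and Mstn 2 in 2705 bases (0.739). Smad3 had the lowest density of the members at 0.393 per kilobase, and the median over all genes was 1.01. A match is a description and says nothing of methylation, which was not measured here.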

How the data were processed

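The labels' protocols describe Trizol extraction of flash-frozen hearts, RiboZero removal of ribosomal RNA and a NEB library kit. The authors deposited raw counts per gene, as whole numbers, for 11 libraries; FastQC, Salmon and mm10 are named, without versions, in the submitters' processing notes, and no source used here states more on counting or strand. Gene lengths in bases (other values) are those of the deposited table.

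Groups and replicate numbers come from sample titles. No label says whether replicates are separate animals, so p-values reflect only how these samples vary, and that variation may be technical. No 2 libraries of a group differed as little as sampling noise. The count test was edgeR 4.0.16 (R 4.3.3): TMM scaling, filterByExpr (minimum count 10, minimum total 15), group means of all 11 libraries in one quasi-likelihood model, and Benjamini-Hochberg adjustment over 14862 genes. Log2 CPM used a prior count of 2. Standard errors came from the coefficient and its F statistic. Exact permutation tests used the absolute difference of mean log2 CPM, 30 in all for the members. The procedure was tested on simulated data.

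The members, the pathway list and the markers were chosen with earlier results of these data known. The text names all members, pathway genes that passed, and otherwise genes from the 3 smallest p of each role. Timp1, Acta2 and Id1 were named after their values were seen. Some genes that met these rules are not reported here. The 3 most alike genes of each member were ranked by Pearson correlation of log2 CPM, leaving out predicted symbols. Alternatives were DESeq2 1.42.0, limma 3.58.1 voom, other scalings and filters, a replicate block, the sample code range, loess offsets (span 0.5) on GC content and length, and leaving out libraries.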

Additional observations from a re-analysis of the deposited data

Results flagged for a closer look

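Among 20 sets of 4 libraries, 1 held a library far from the others: HFD+STZ replicate 3 had 34.2 CPM of Tgfbr1, where the other 3 libraries of its group lay between 25.4 and 26.0 CPM. Its gap to the nearest of them was 0.934 of the whole range; this is above Dixon's 95% critical value for 4 samples. Chance flags about 1 in 20 such sets. The chow sets, of 3 libraries each, were not checked.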

How the results depend on the processing

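Called values kept their direction under the alternatives run, while the number of calls depended on the setting. In HFD+STZ against chow, where edgeR called 25 genes, 0 members and 0 pathway genes, DESeq2 called 307, 1 and 4, limma voom with quality weights 1954, 3 and 24, and edgeR without a filter 190, 1 and 4. A stricter filter gave 45 genes and 1 member, offsets for GC content and length 59 genes, 1 member and 1 pathway gene, and DESeq2 size factors or nuclear genes alone 1 member. Only the groups compared gave 0 genes, and the code range as a covariate 1. In METTL3 against HFD+STZ (0, 0 and 0), DESeq2 called 139 genes and 1 pathway gene, and voom 395 and 3. In METTL3 against chow (475 genes, 2 members, 3 pathway genes), DESeq2 called 1509 genes, 2 members and 8 pathway genes, voom 3078, 3 (Tgfb3 added) and 18, and no filter 747 genes and 7 pathway genes. Offsets gave 183 genes, 1 member and 1 pathway gene. Only the groups compared gave 54 genes and the code range 1, each with 0 members and 0 pathway genes; the code range also moved the pathway median from -0.03 to 0.18. Without chow replicate 3 and HFD+STZ replicate 1 together, the comparisons gave 493, 403 and 1258 genes and 10, 6 and 8 pathway genes, with 1 member in HFD+STZ against chow. The cause of these shifts was not tested.

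Leaving out 1 library at a time gave 1 to 215 genes, 0 to 1 members and 0 to 6 pathway genes in HFD+STZ against chow, 0 to 0 of each in METTL3 against HFD+STZ, and 34 to 750 genes, 0 to 2 members and 0 to 5 pathway genes in METTL3 against chow. Replicate numbers did not pair the libraries: 2 of 10 same-numbered pairs correlated above 0.1, and 0 of 11 libraries correlated best with their own number. With the replicate block 2 genes were called in HFD+STZ against chow and 5 in METTL3 against chow, with 0 members and 0 pathway genes in the latter. Mstn was higher than chow in all 23 alternatives of each comparison and passed in 10 (HFD+STZ) and 17 (METTL3); Tgfb1 was lower in METTL3 than in chow in all 23 and passed in 12. Depth limits Mstn most, with 5 counts over the chow libraries.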
